A study of Mus musculus with 4 samples.

Results

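The m6A peaks described here are those whose summit, the position of highest signal, lay inside an intron after the first of a protein-coding gene. A summit was kept when it lay in no exon of the GENCODE M21 basic annotation and fell in the second or a later intron of exactly 1 protein-coding gene, with introns taken from the basic transcript with the longest coding sequence. In m6A immunoprecipitation (IP) replicate 1, 771 of 15635 peaks (4.93%) met this rule, in 640 genes, and in replicate 2, 714 of 14872 peaks (4.80%) did, in 593 genes. These are called later-intron peaks, and the values of the peaks played no part in choosing them.

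Methylated RNA was captured with an antibody and sequenced (meRIP-seq) from Kit+ foetal liver cells of C57BL/6 mice that had been enriched with magnetic beads. The study's methods describe the cells as Ythdf2CTL, that is Ythdf2 fl/fl without Cre, an allele in which loxP sites flank exon 2 and GFP follows the start codon, so no sample lacked YTHDF2. The series has 4 samples, 2 IP and 2 input replicates, and both IP replicates have a peak list of their own, on which this account rests. The labels give total RNA for the IP samples and polyA RNA for the input samples, so a higher content of unspliced RNA in the IP samples cannot be told apart from methylation of introns. Foetal age is not given in the sources used here. Kit marks haematopoietic stem and progenitor cells. Of 10 progenitor markers, 7 carried an exonic peak in both lists (Cd34, Gata2, Runx1, Tal1, Lmo2, Ikzf1 and Meis1), and Kit, Myb and Flt3 did not. The counts were 3 of 8 erythroid, 2 of 8 hepatocyte (Apoa1 and Hnf4a), 1 of 5 endothelial (Kdr) and 0 of 6 macrophage markers. Of all 21951 protein-coding genes with a basic coding transcript, 7143 had an exonic peak in replicate 1 and 6930 in replicate 2. A marker without a peak can be unmethylated or unexpressed, so these counts give no cell shares.

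N6-methyladenosine is placed on nascent RNA by the METTL3-METTL14 complex, mostly within DRACH sequences, in which the methylated base follows a purine and precedes C, and of which GGAC is the core most often found. In mature mRNA the mark is concentrated in long internal exons and near stop codons. Introns are present only until splicing removes them, unless a transcript retains the intron, ends inside it, or uses an exon there that the annotation lacks.

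The sequences of 8 peaks found in both lists are shown first, because GGAC on the strand of the gene is the feature that the later comparisons turn on. They are those of the highest lower −log10 q of both lists that had GGAC within 50 nt of both summits and an unmasked summit base. Bases are those of the GRCm38 reference on the strand of the gene, from 5′ to 3′, with GGAC in capitals. For Acin1 (chr14:54650569-54650669, minus strand), Jph2 (chr2:163364983-163365083, minus), Aldh18a1 (chr19:40561381-40561481, minus), Batf (chr12:85698195-85698295, plus) and Tmcc2 (chr1:132359057-132359157, minus) they run 50 nt to either side of the replicate 1 summit. For Hk1 (chr10:62327597-62327626, minus), Rsrc1 (chr3:67101469-67101498, plus) and G3bp1 (chr11:55487332-55487361, plus), whose windows overlap an untranslated region of a non-basic transcript, only the 30 bases around the GGAC nearest the summit are shown.
Hk1: tgaGGACtcaggGGACacacagagggcacc
Acin1: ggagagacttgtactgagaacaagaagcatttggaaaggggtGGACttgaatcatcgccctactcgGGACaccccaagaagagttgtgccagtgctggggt
Rsrc1: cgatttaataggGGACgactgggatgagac
G3bp1: ggcgtgtgcaatGGACttgtcgtgcacaaa
Jph2: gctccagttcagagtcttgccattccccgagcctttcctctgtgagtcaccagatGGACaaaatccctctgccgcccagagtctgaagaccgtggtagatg
Aldh18a1: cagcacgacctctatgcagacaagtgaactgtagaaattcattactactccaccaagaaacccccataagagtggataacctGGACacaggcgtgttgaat
Batf: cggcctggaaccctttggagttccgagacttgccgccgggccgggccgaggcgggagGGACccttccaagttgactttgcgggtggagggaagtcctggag
Tmcc2: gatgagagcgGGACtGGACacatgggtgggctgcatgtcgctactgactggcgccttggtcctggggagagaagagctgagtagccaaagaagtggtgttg
In Batf, the A of the GGAC lay 9 nt downstream of the summit in replicate 1 and 10 nt downstream in replicate 2. In Aldh18a1 it lay 34 nt downstream of both summits, which fell on the same base. In Hk1, which has 2 copies in the stretch shown, the nearest A lay 9 nt and 7 nt upstream.

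The strongest later-intron peaks are those of genes with unrelated roles, and 12 of them were selected by the lower −log10 q of both lists. Prcp, a lysosomal carboxypeptidase, had the highest, with a fold enrichment of IP over background of 9.69 in replicate 1 and 10.8 in replicate 2. It rested on 139 and 121 IP reads over a background of 13.5 and 10.3 reads, in intron 6 of 8 at chr7:92927394-92927703. Its summits lay 125 and 121 nt before the acceptor, the 3′ end of the intron, and no GGAC was found within 100 nt on the gene strand. No exon of the gene held a summit in either list, though this peak itself reached into an exon in both.

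Fbxl17, an F-box protein that brings substrates to a ubiquitin ligase, reached a fold enrichment of 13.3 and 13.2 from 82 IP reads in each list, in intron 3 of 8 and 7006 nt from the donor, the 5′ end of the intron. Hk1, which carries out the first step of glycolysis, had folds of 7.94 and 6.46 with 122 and 128 IP reads. Wdr91, a protein of endosome maturation, had folds of 5.74 and 6.13. All 3 lay over 500 nt from the basic exons of their gene, and their genes had exonic peaks in both lists. The Fbxl17 summit lay in a predicted RefSeq exon of Fbxl17, and the Hk1 summit in an exon of a non-basic GENCODE transcript and a predicted RefSeq exon of Hk1.

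Splicing and RNA-binding proteins were also among the 12. Acin1, which associates with spliced RNA, had folds of 4.76 and 5.52 in intron 9 of 18, on 145 IP reads in each list. Its summit also lay within the span of another gene, and the peak touched a basic exon in both lists. With no strand in the peak lists, the gene of origin is not certain there. Rsrc1, a serine/arginine-rich splicing protein, had folds of 5.84 and 6.14 in intron 4 of 9, an intron of 98119 nt. G3bp1, which nucleates stress granules, had folds of 6.08 and 6.75 in intron 2 of 11, at 112 and 123 nt before the acceptor. Acin1 and Rsrc1 summits lay in predicted RefSeq exons of their gene. The G3bp1 summit lay in an exon of a non-coding G3bp1 transcript of the comprehensive GENCODE set and in an exon of a predicted RefSeq mRNA of G3bp1.

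The highest folds in this group came with low backgrounds. Jph2, a junctophilin best known from muscle, had folds of 17.1 and 12.2 over backgrounds of 2.62 and 3.78 reads, and its summit lay in an exon of the predicted RefSeq gene Gm35750. The peak lists carry no strand, so the gene of origin cannot be told apart there. Batf, an AP-1 family transcription factor of lymphocytes, had folds of 15.1 and 9.11 over 3.49 and 6.31 reads, in intron 2 of 2 and in no exon of GENCODE or RefSeq. Orc3, a subunit of the origin recognition complex, had folds of 10.4 and 10.6 in an exon of a non-basic Orc3 transcript. Aldh18a1, an enzyme of proline synthesis, had folds of 4.81 and 8.13 at a summit in the RefSeq pseudogene Gm15801, further apart between lists than those of Tmcc2. The last, a membrane protein with coiled coils, had folds of 6.01 and 6.37 at 69 and 61 nt before the acceptor.

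A further 5 peaks had the highest lower fold among those with a background of at least 5 reads in both lists. Vdr, the vitamin D receptor, had folds of 9.14 and 7.24, and its summit lay in the predicted RefSeq gene Gm33690. Commd6, of the COMM domain family, had folds of 7.56 and 7.86 at 20 and 11 nt before the acceptor. Tefm, the mitochondrial transcription elongation factor, had folds of 7.71 and 8.26 at 3 and 35 nt before the acceptor. Malrd1, a regulator of bile acid metabolism, had folds of 7.94 and 8.02 in intron 29 of 38. Abca13, a large ABC transporter, had folds of 8.01 and 8.84 in intron 38 of 61. Tmcc2 and Commd6 have a retained-intron transcript at the summit in the comprehensive GENCODE set, and Tefm a protein-coding one outside the basic set. In all, 12 of the 17 peaks had a summit in an exon of comprehensive GENCODE or RefSeq. Of all later-intron peaks, 36.4% in replicate 1 and 37.0% in replicate 2 did, so these strongest peaks are not typical. Of the 17 peaks, 12 lay over 500 nt from a basic exon of the gene, 5 lay on the acceptor side, 2 had a summit in masked repeat sequence, and 8 had GGAC within 50 nt on the gene strand in both lists.

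Most genes carried 1 later-intron peak. A single peak was found in 543 genes (84.8%) in replicate 1 and in 503 (84.8%) in replicate 2, and 25 and 22 genes had 3 or more. Of the peaks, 154 and 164 shared an intron with another one, and of 90 and 94 pairs of neighbouring summits in 1 intron, 76 and 77 lay within 2000 nt of each other. Gm37240, a gene model with a very long intron 3, had the most, with 6 and 5 peaks. They fell in 2 clusters, and 3 of 6 and 2 of 5 summits lay in an exon of the RefSeq gene Gm35486.

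Among the next genes, Miga1 and Gabbr2 held all their peaks in a single intron, and Atp8b4 did not. Miga1, which acts in mitochondrial fusion, had 4 peaks in each list in intron 4 of 15, between chr3:152326675-152327073 and chr3:152329458-152330157 in replicate 1. Their folds were 9.31, 4.96, 15.1 and 10.8 in replicate 1 and 4.76, 7.63, 9.52 and 7.09 in replicate 2, in the order of the coordinates, and none lay in an exon of either annotation. Gabbr2, a GABA-B receptor subunit, also had 4 in each list, all in exons of the predicted RefSeq gene Gm32208. Atp8b4, a P4-type ATPase of the family of lipid flippases, had 3 and 5, and all 8 summits lay in masked sequence. They fell in introns 6 and 20 of 27 in replicate 1 and in introns 6, 20 and 23 in replicate 2. Peaks grouped in a single intron, as in Miga1 and Gabbr2, count as separate members but share a gene and an intron.

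The positions within introns were uneven. Of the summits that lay within 200 nt of exactly 1 end of the intron, 203 of 238 (85.3%, 95% exact interval 80.1 to 89.5) were at the acceptor in replicate 1 and 200 of 233 (85.8%, 80.7 to 90.0) in replicate 2. The first 50 nt from the acceptor held 179 and 163 summits, against 18 and 20 in the first 50 nt from the donor. That is 23.2% and 22.8% of all later-intron peaks, whereas 0.921% of the bases that could hold such a summit in the later introns of the same genes lie that close to an acceptor. The share was alike for genes on the plus strand (83.8% and 84.8%) and on the minus strand (86.6% and 86.7%), so the excess followed the direction of the gene. First introns had the same asymmetry, with 89.1% and 90.4% at the acceptor. The grouping by intron end was chosen after the positions had been seen, and no test was run on it.

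**Figure D1:**
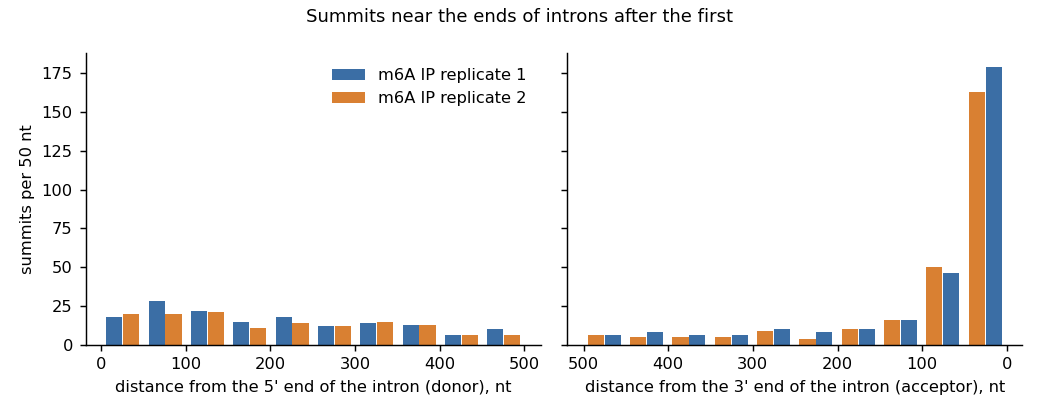
Number of later-intron summits in bins of 50 nt by distance from the 5′ end (left) and the 3′ end (right) of the intron, in m6A IP replicate 1 (blue) and 2 (orange). The bin next to the acceptor holds 179 and 163 summits, and no bin at the donor holds more than 28.

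Acceptor-side peaks were narrow and reached into the exon. They spanned a median of 212 and 217 bp, against 303 and 306.5 bp for the peaks over 500 nt from an exon, and 82.8% and 79% of them were at most 250 bp wide. The peak extended over the junction into the next exon in 183 (90.1%) and 189 (94.5%) of them, by a median of 46 and 52.5 bases. The gene had an exonic peak in the same list for 74.9% and 74.5% of them, compared with 55.2% and 55.4% of the peaks over 500 nt from an exon.

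The junctions of 3 such peaks are shown, because the summit lay within a few bases of the exon. They are the strongest shared peaks with both summits within 50 nt of the acceptor whose junction does not touch an untranslated region. The last 50 intron bases are in lower case and the first 50 exon bases in capitals, on the strand of the gene, for Ogdh (chr11:6313738-6313837, plus), Commd6 (chr14:101637057-101637156, minus) and Taok3 (chr5:117272047-117272146, plus).
Ogdh: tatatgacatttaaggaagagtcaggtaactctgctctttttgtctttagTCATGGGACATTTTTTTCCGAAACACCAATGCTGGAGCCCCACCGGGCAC
Commd6: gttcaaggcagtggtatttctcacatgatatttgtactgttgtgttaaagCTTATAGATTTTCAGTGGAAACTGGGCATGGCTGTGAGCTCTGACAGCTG
Taok3: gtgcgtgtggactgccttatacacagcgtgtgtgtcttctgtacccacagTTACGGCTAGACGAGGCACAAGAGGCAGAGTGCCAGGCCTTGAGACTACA
For Ogdh, the first subunit of the oxoglutarate dehydrogenase complex, the summits lay 3 and 8 nt before the exon, with folds of 3.81 and 3.92 on 136 and 135 IP reads. GGAC is present on the exon side of that junction and not on the intron side. Taok3, a protein kinase, had summits 16 and 11 nt before the exon, with folds of 5.40 and 4.49, and its GGAC lies on the intron side.

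Within 500 nt of an exon of the gene lay 365 later-intron summits (47.3%) in replicate 1 and 342 (47.9%) in replicate 2, against 14.8% of the bases of the later introns of the same genes. The remaining 406 and 372 summits, called distal here, were fainter. They rested on a median of 21 and 23 IP reads over a background of 2.62 and 3.15 reads, with a median fold of 5.63 and 5.67. Acceptor-side peaks had a median of 45 and 42 IP reads over 7.86 and 7.36, and a fold of 5.06 and 5.25.

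Many distal summits fell in an exon that the basic annotation leaves out. RefSeq exons held 109 (26.8%, 22.6 to 31.4) in replicate 1 and 100 (26.9%, 22.4 to 31.7) in replicate 2, whereas 4.97% of the distal bases of the same introns lie in such exons. Of these, 57 and 57 were exons of the same gene, 16 and 13 of a pseudogene, and 36 and 30 of another gene. The comprehensive GENCODE set had an exon at 17.2% and 19.4% of distal summits, against 1.88% of the distal bases of the same introns. Neither set had one at 256 (63.1%) and 229 (61.6%).

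The question of whether these peaks carry the methylation motif was addressed by comparing both strands of the same window, which have the same depth, with the strand balance of the whole introns beside it. GGAC lay within 50 nt of the summit on the gene strand in 326 windows (42.3%, 38.8 to 45.9) of replicate 1 and on the opposite strand in 246 (31.9%, 28.6 to 35.3). In replicate 2 it was on the gene strand in 288 (40.3%, 36.7 to 44.0) and on the opposite strand in 223 (31.2%, 27.8 to 34.8). The difference passed an exact two-sided binomial test on windows with GGAC on 1 strand alone (254 against 174, adjusted p = 0.00129, and 209 against 144, adjusted p = 0.00228, over 5 motifs in 2 lists). Taken over every base of the same introns where a summit could lie, GGAC was near 21.8% on the gene strand and 23.8% on the opposite strand. Those bases are not matched to the summit windows for composition. The windows had a median GC content of 50.5% and 49.5%, against 42.4% of those bases. Both strands of the windows were above the intron values, and the part of GC content in this was not tested. Peaks of 1 gene share their source, and the p-values treat windows as independent.

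The other motifs were compared in the same way. GGACT was found in 139 and 124 windows on the gene strand and in 89 and 88 on the opposite strand (adjusted p = 0.00228 and 0.0202 by the exact binomial test). DRACH was near most summits on either strand, in 89.0% and 87.3% against 83.7% and 82.8% (exact binomial test, adjusted p = 0.0117 and 0.0443). The polyadenylation signal AATAAA was rare and did not pass the test, with 2.46% and 3.22% of windows on the gene strand and 3.24% and 3.36% on the other (adjusted p = 0.564 and 1, exact). Runs of 8 A, at which an oligo-dT primer could start, were found in 4 windows on the gene strand and 11 on the opposite strand in replicate 1 and in 7 and 9 in replicate 2 (adjusted p = 0.169 and 0.893, exact).

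Among all 120 pairs of a tetramer and its reverse complement, 6 (5%) were uneven between strands in both lists (exact binomial tests, adjusted p up to 0.0195). GACT was one of them, found in 45.0% and 44.7% of windows on the gene strand against 30.9% and 31.4% on the other, while in every base of the same introns it was at 27.9% and 28.5%. TGGA was found in 51.6% and 53.4% against 42.0% and 40.2%, and in every base at 38.8% and 37.4%. TGAA was found in 40.3% and 42.0% against 31.8% and 33.2%, and in every base at 41.7% and 41.9%. GTTG and GTGG leaned the same way throughout these introns, with GTTG at 28.5% against 21.4% of all bases and GTGG at 32.3% against 29.2%. The remaining tetramer of the 6 is GGAC itself. It overlaps GACT in GGACT, so their counts are not separate evidence.

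The strand difference was then taken by place in the intron. In distal windows GGAC was on the gene strand at 44.6% and 44.9% of summits and on the opposite strand at 28.6% and 31.7% (adjusted p = 0.000338 and 0.00239, exact binomial test, a subset chosen after the data had been seen). In windows within 500 nt of an exon it was at 39.7% against 35.6% and 35.4% against 30.7% (exact binomial test, adjusted p = 0.510 and 0.453). The gap between the 2 subsets itself was not tested. The lean of distal windows was not particular to GGAC. Of the 120 tetramer pairs, 8 (6.67%) were uneven there in both lists. AAGA was at 51.2% and 52.7% against 34.2% and 38.7%, AGAA at 53.2% and 54.0% against 37.4% in both, and TGAA at 42.1% and 46.8% against 29.8% and 27.4%. GAAG, GAAC and AGAC were the others beside GACT and GGAC, and GGAC ranked 4th and 6th by p. On the acceptor side GGAC was at 36.0% against 36.9% and 24.0% against 31.5%, and at the 35 and 33 donor-side summits at 54.3% against 28.6% and 57.6% against 15.2%.

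**Figure D2:**
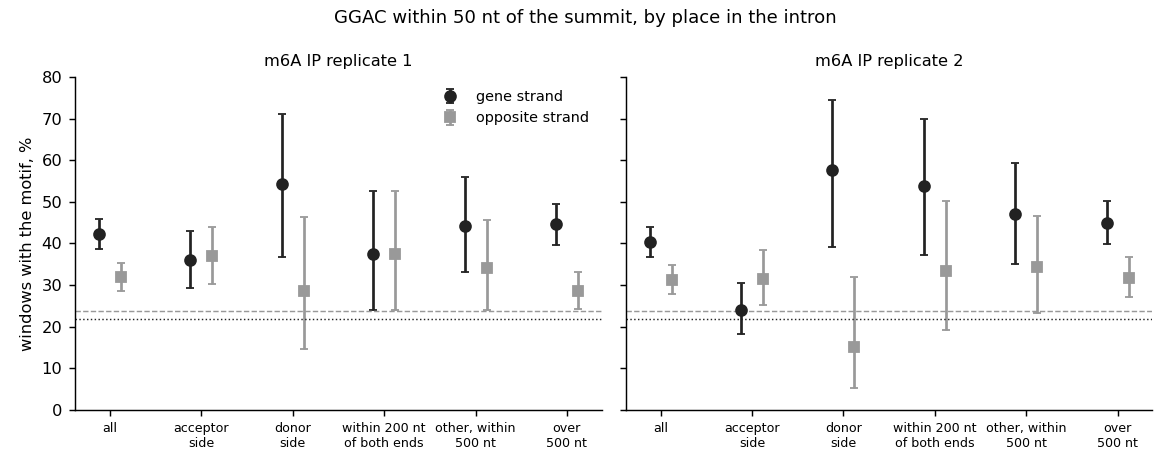
Share of later-intron summits with GGAC within 50 nt on the gene strand (black circles) and the opposite strand (grey squares) by place in the intron, with exact 95% intervals that cover counting error only. Dotted and dashed lines give the gene-strand and opposite-strand share over all eligible bases of the same introns, 21.8% and 23.8%, not matched for GC content. The intervals of both strands do not overlap in the distal windows of either list.

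The overall strand difference was lost under 3 settings. Without summits in an exon of the comprehensive GENCODE set it was 5.78 percentage points on average (adjusted p up to 0.211), with 25 nt on either side 5.19 points (adjusted p up to 0.211), and at a −log10 q of at least 5, 8.84 points (adjusted p up to 0.0557). Distal summits in an exon of neither annotation had GGAC on the gene strand in 41.0% and 43.7% of windows and on the opposite strand in 31.3% and 31.9%. When those were divided by repeat masking, the 119 and 107 masked ones were at 47.1% against 22.7% and 45.8% against 26.2%. The 137 and 122 unmasked ones were at 35.8% against 38.7% and 41.8% against 36.9%, with opposite signs and overlapping intervals. The part of repeats in the strand difference was not tested.

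GGAC on the gene strand reached its highest shares just downstream of the summit. In distal windows of replicate 1, the bins of 20 nt from 0 to 59 nt downstream held it in 13.1%, 14.3% and 12.8% of summits, against 6.16%, 7.14% and 6.90% on the opposite strand. In replicate 2 they held it in 16.1%, 13.7% and 13.7%, against 7.80%, 8.06% and 5.38%. The bins from 100 to 61 nt upstream ranged from 6.18% to 9.36% on the gene strand and from 5.65% to 11.3% on the opposite strand. There the opposite strand was the higher one in both bins of replicate 1 and in 1 of 2 bins of replicate 2. From 60 to 1 nt upstream the gene strand stood at 9.85%, 10.8% and 10.1% in replicate 1, against 7.39%, 7.88% and 9.11%. In replicate 2 it stood at 9.41%, 8.60% and 10.2%, against 8.06%, 9.95% and 6.99%. From 60 to 99 nt downstream it was at 10.8% and 9.61% in replicate 1 and at 13.7% and 9.41% in replicate 2. These profiles are a description, with no test.

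**Figure D3:**
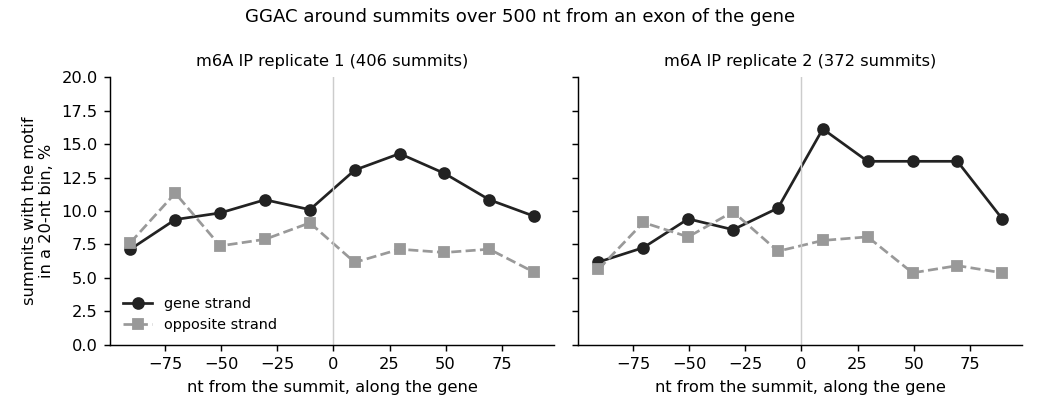
Share of distal later-intron summits with GGAC in each bin of 20 nt, by the position of the motif from the summit along the gene, on the gene strand (black) and the opposite strand (grey). The gene strand lies above the opposite strand in every bin from 0 nt onward in both replicates, and peaks at 14.3% and 16.1%.

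Reproducibility was lower than that of exonic peaks. Of the later-intron peaks, 475 of 771 (61.6%, 58.1 to 65.1) of replicate 1 overlapped a peak of replicate 2. In turn, 487 of 714 (68.2%, 64.7 to 71.6) of replicate 2 overlapped one of replicate 1, a mean of 64.9%. Both shares count the overlap of the same 2 lists, each from its own side, so they are not independent measurements. Over all peaks the shares were 80.6% and 83.9%. Exonic peaks were shared at 85.0% and 87.3%, and the difference of 23.4 and 19.1 percentage points passed Fisher's exact test (adjusted p = 7.7e-51 and 1.68e-36). These p-values treat peaks as independent, though peaks share genes, introns and 1 pair of libraries. Passing in both lists is not 2 separate findings, because sharing is counted between the same lists. Peaks in first introns, the class most like these, were shared at 57.1% and 60.9% (Fisher's exact test, adjusted p = 0.151 in replicate 1 and 0.0271 in replicate 2), so a difference from first introns did not hold in both lists.

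The gap from exonic peaks went along with read depth and with place. Later-intron peaks rested on a median of 30 and 31 IP reads and exonic peaks on 71 and 69. Distal peaks with 40 to 79 IP reads were shared at 95.2% (86.5 to 99.0) and 94.0% (85.4 to 98.3), and exonic peaks with as many reads at 88.8% and 89.0%. Acceptor-side peaks with as many reads were shared at 54.5% (42.8 to 65.9) and 64.9% (52.9 to 75.6). Under 20 reads, distal peaks were shared at 43.7% and 54.9% and exonic ones at 50.6% and 55.9%. At 20 to 39 reads they were shared at 76.2% and 73.1%, against 80.6% and 75.6% in exons, and at 80 or more at 92.9% and 93.9%, against 92.8% and 98.0%. Distal peaks were thus above exonic ones in both lists at 40 to 79 reads alone, and none of these bins was tested.

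**Figure D4:**
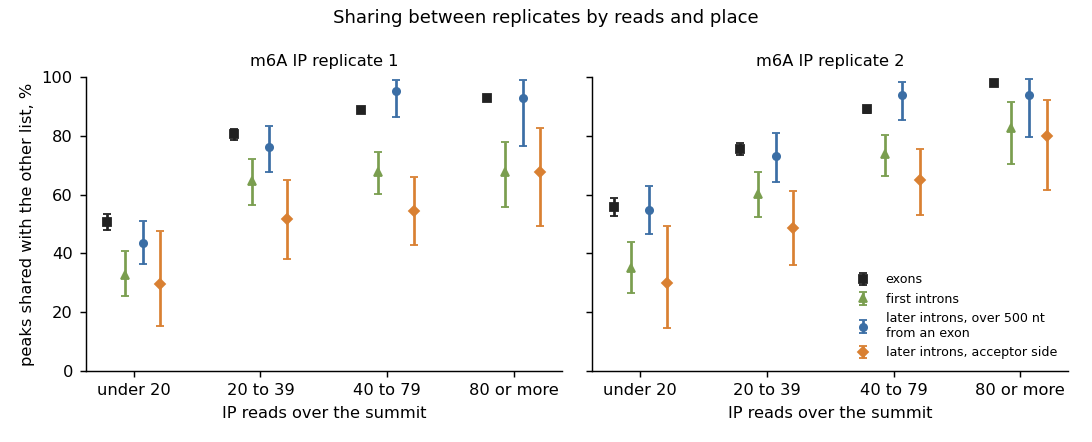
Share of peaks that overlap a peak of the other list by the number of IP reads over the summit, for exonic peaks, first introns, distal later-intron peaks and acceptor-side later-intron peaks, with exact 95% intervals. At 40 to 79 reads, distal peaks stand at 95.2% and 94.0% and acceptor-side peaks at 54.5% and 64.9%.

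Sharing within the later-intron peaks was then compared by feature. Peaks within 500 nt of an exon were shared at 57.8% and 64.9% and distal ones at 65.0% and 71.2% (Fisher's exact test, adjusted p = 0.0904 and 0.126). With 200 nt as the limit the difference was 10.4 percentage points on average and passed in both lists (adjusted p up to 0.0170). Peaks with and without GGAC were shared at 58.6% and 63.8% in replicate 1 and at 71.2% and 66.2% in replicate 2, in opposite directions (Fisher's exact test, adjusted p = 0.212 in both). Peaks in masked sequence were shared at 62.6% and 68.3%, and those in unmasked sequence at 61.2% and 68.2% (Fisher's exact test, adjusted p = 0.782 and 1).

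For 420 peaks that overlapped one to one in the same intron, in 366 genes, both lists placed the summit within 15 nt of each other in 211 (50.2%) and within 50 nt in 327 (77.9%). Their fold enrichment ran from 1.44 to 18.4. Between lists the log2 fold differed with a SD of 0.48 and a median of 0.05, and in 17 pairs (4.05%) by over 2-fold. Spearman's rho was 0.671 and Pearson's r of log2 fold was 0.732 over these 420 pairs, which share the libraries and, in part, genes and introns, and this describes the pair of lists. Of the pairs, 144 (34.3%) had GGAC near both summits. A total of 235 were distal in both lists, 82 were on the acceptor side in both, and 17 changed place between lists.

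**Figure D5:**
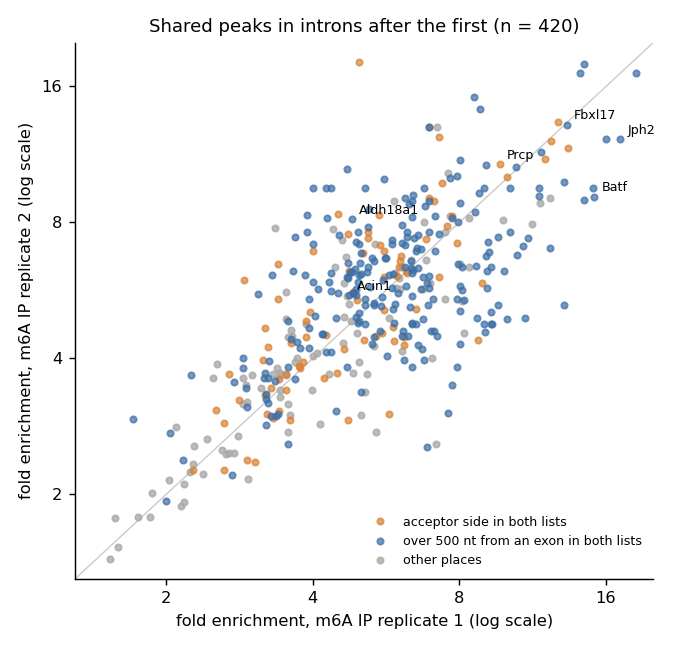
Fold enrichment of IP over background of 420 later-intron peaks in m6A IP replicate 1 and replicate 2, on log scales, with the line of equal values. Peaks on the acceptor side reach 13.3 and 18.1 in replicates 1 and 2 and distal peaks 18.4 and 17.9, and 17 pairs differ by over 2-fold.

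Fold enrichment was higher than that of exonic peaks at a lower background. Of the later-intron peaks, 63.2% and 60.6% lay above the median fold of the whole list, compared with 43.8% of exonic peaks in both lists (Fisher's exact test, adjusted p = 1.09e-24 and 1.19e-17). The median fold was 5.07 and 5.33, against 4.12 and 4.29 in exons, while the median background was 5.24 and 5.04 reads, against 15.7 and 14.7. Among peaks with a fold of at least 4 in both classes, the difference in the share above their median was 1.004 percentage points on average and did not pass (adjusted p up to 1). MACS2 adds 1 to both terms of the ratio, so folds at a low background move with single reads.

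First introns held 559 and 514 peaks by the same rule. GGAC was near 38.6% and 43.2% of these summits, against 42.3% and 40.3%, with opposite signs in the lists (Fisher's exact test, adjusted p = 0.232 and 0.359). The summit lay in masked sequence in 26.7% and 26.1% of later-intron peaks and in 20.9% and 21.01% of first-intron peaks (Fisher's exact test, adjusted p = 0.0424 and 0.0904). Distal later-intron summits were in masked sequence in 38.9% and 38.4%, against 31.2% of the distal bases of the same introns. The gene had an exonic peak in the same list for 60.1% and 61.1% of later-intron peaks and for 54.9% and 51.2% of first-intron peaks (Fisher's exact test, adjusted p = 0.114 and 0.00206). None of these passed in both lists.

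Per length, later introns held fewer peaks than first introns. Over the 651 Mb of later introns where a summit could lie there were 1.18 (1.10 to 1.27) and 1.10 (1.02 to 1.18) summits per Mb, against 2.54 (2.33 to 2.76) and 2.34 (2.14 to 2.55) in first introns, with exact Poisson intervals for counting error only. In genes with an exonic peak in both lists the values were 2.28 and 2.18 in later introns and 3.81 and 3.48 in first introns. The gap was smaller over 500 nt from an exon, with 0.770 (0.697 to 0.848) and 0.705 (0.635 to 0.781) per Mb in later introns and 0.980 (0.849 to 1.13) and 0.857 (0.735 to 0.994) in first introns. These intervals overlap in replicate 2 and nearly touch in replicate 1. Within the later introns, the second intron held 195 (25.3%) and 187 (26.2%) of the peaks and the last intron 90 (11.7%) and 84 (11.8%). The bases in second and last introns were not counted, so these shares show neither an excess nor a deficit per length. No test was run on the densities.

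Genes of the haematopoietic and RNA-processing lists carried later-intron peaks in small numbers. Of 18243 genes with a later intron, 395 (2.17%) had such a peak in both lists. Among 46 haematopoietic transcription factors there were 4, namely Erg, Cbfa2t3, Lyl1 and Nfix. Erg, an ETS factor of stem cells, had folds of 5.94 and 5.71 on 62 and 53 IP reads in intron 2 of 10, with a GGAC 31 and 8 nt downstream of the summits. Cbfa2t3, a corepressor, had folds of 3.35 and 7.76, but the summits lay 456 bases apart, on the acceptor side in replicate 1 and the donor side in replicate 2. Lyl1, a basic helix-loop-helix factor, had folds of 2.69 and 2.47 with both summits on the same base. Nfix had folds of 3.52 and 3.68 on 21 and 26 IP reads.

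Of 39 splicing factors known for poison exons, Hnrnpl and Hnrnpll, both regulators of alternative splicing, had peaks in both lists. The Hnrnpl peak in intron 7 of 13 had a fold of 4.68 in replicate 1, while replicate 2 held 2 peaks there with folds of 4.38 and 3.002. The Hnrnpll peak in intron 6 of 12 had folds of 6.75 and 5.69. Both genes have a retained-intron transcript at these summits in the comprehensive GENCODE set, except at the replicate 2 Hnrnpl summit with a fold of 3.002. Of 17 m6A writers, erasers and readers, 1 had peaks in both lists, Ythdc1, the nuclear reader of the mark. Its summits in intron 11 of 16 had folds of 7.16 and 2.58 and lay 1198 bases apart within peaks that overlapped, both in exons of non-basic Ythdc1 transcripts that retain the intron or are subject to nonsense-mediated decay. Of 41 genes of interferon, TNF and Jak-Stat signalling, 1 did, Rela, a subunit of NF-kB, with folds of 3.22 and 3.02. These counts are 8.70%, 5.13%, 5.88% and 2.44% of the lists, from 1 to 4 genes each, and were not tested.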

How the data were processed

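m6A IP and input libraries of 2 biological replicates each belong to the series, and the 2 IP peak lists were analysed. The input libraries were not analysed here. According to the study's methods and the submitters' processing notes, the authors aligned reads to GRCm38 (mm10) with HISAT2 and called peaks with MACS2 2.1.1.20160309 without its shifting model, on each replicate separately. The q threshold and the control library are not given in the sources used here. Per the file columns, each deposited peak has a score (10 times its −log10 q), a fold enrichment ratio of IP over background at the summit, a −log10 p-value, a −log10 q-value and the summit offset. The deposited lists hold no library totals, so depth is known only at summits. IP reads over each summit were solved from the deposited fold and −log10 p, with a tolerance of 0.001, and background is on the IP scale.

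Summits were placed on GENCODE M21 with Python 3.11.15, pandas 2.3.3, numpy 2.4.6 and pysam 0.24.0, and repeat-masked bases are those in lower case in the reference. Sharing meant an overlap of at least 1 bp with a peak of the other list. Motifs were sought within 50 nt of the summit on both strands. Classes of peaks were compared with Fisher's exact test and strands with the exact binomial test (two-sided, SciPy 1.17.1) in each list. P-values were Benjamini-Hochberg adjusted over 18 values from 9 class comparisons, 10 values for motifs, and 120 tetramer pairs per list. A result was called when the adjusted p was under 0.05 in both lists in 1 direction. All tests treat peaks as independent, though some share a gene or an intron. Intervals are exact Clopper-Pearson 95% intervals and cover counting error only. The tests were tried on simulated data. Members and gene lists were chosen with earlier results of these data known.

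The text names the 12 one-to-one shared peaks of highest lower −log10 q, then the 5 of highest lower fold at a background of at least 5 reads in both lists, the 4 genes with most peaks that have at least 3 in each list, and every gene of 4 gene lists with a peak in both. Gm37240, Gabbr2, Miga1 and Atp8b4 are those 4 genes. Alternatives covered the overlap rule, stricter q and fold, other windows and distances, annotation filters, 1 peak per gene and each list alone.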

Additional observations from a re-analysis of the deposited data

How the results depend on the processing

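Values here are means over both lists, in percentage points for differences between shares. The sharing deficit from exonic peaks passed under all 12 alternatives run, from -24.1 to -14.8 points. It passed in both lists or, where 1 list was used alone, in that list. The GGAC strand difference kept its sign under all 14, from 4.39 to 15.5 points. It missed the threshold at a −log10 q of at least 5 (8.84, adjusted p up to 0.0557), without comprehensive exons (5.78), with 25 nt windows (5.19) and within 500 nt of an exon (4.39, chosen after the data were seen). Uneven tetramers then numbered 1 without comprehensive exons, 0 with 25 nt windows (exact binomial test) and 12 within 500 nt of an exon, and 10 to 12 with 1 list alone. Sharing, 64.9% in the setting reported, was 58.5% at a reciprocal overlap of 50%, 54.4% for summits within 100 bp and 57.5% at a fold of at least 4. The share of summits within 500 nt of an exon was 50.2% at a −log10 q of at least 5, 41.0% at a fold of at least 4, 44.2% without comprehensive exons, 19.3% without peaks that touch an exon, 53.1% with 1 peak per gene, 51.5% without RefSeq exons, 21.8% without summits within 200 nt of the acceptor and 47.2% outside other genes, and with limits of 200 and 1000 nt it was 38.4% and 55.4%. At a fold of at least 4 the excess of high folds over exons was 1.004 points, and 3 differences then passed, namely sharing near against far from an exon (-15.7), masked sequence against first introns (8.41) and genes with an exonic peak against first introns (11.5). The near-far difference also passed at 200 nt (-10.4), masked sequence with at least 50% of the window masked (8.23) and outside other genes (6.47), and genes with an exonic peak without RefSeq exons (9.51).

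With 1 list alone, sharing against first introns (7.31, adjusted p = 0.0203 by Fisher's exact test) and genes with an exonic peak (9.90, adjusted p = 0.00172) passed in replicate 2, and masked sequence against first introns (5.79, adjusted p = 0.0495) in replicate 1. Several differences changed sign under other settings, none of them past the threshold there. GGAC against first introns was -0.0556 at a fold of at least 4, -1.33 without peaks that touch an exon, -0.152 with 100 nt windows, -2.37 over 500 nt from an exon, -3.49 without acceptor-side summits, -0.0831 outside other genes, and -2.85 to 3.64 with 1 list alone. Sharing with against without GGAC was 2.38 at a −log10 q of at least 5, 1.66 with 1 peak per gene, 4.17 and 1.86 with 25 and 100 nt windows, 0.233 outside other genes and -5.23 to 4.98 with 1 list alone. Sharing of masked against unmasked peaks was -2.67 for summits within 100 bp, -0.898 at a −log10 q of at least 5, -1.41 without peaks that touch an exon, -0.281 with 50% masking and -2.55 without acceptor-side summits. Sharing near against far from an exon was 0.857 for summits within 100 bp and 3.90 without acceptor-side summits. Sharing against first introns was -0.171 without peaks that touch an exon, -0.488 over 500 nt from an exon and 4.54 to 7.31 with 1 list alone, and genes with an exonic peak against first introns were at -0.903, -0.738 and, without acceptor-side summits, -2.52, and 5.13 to 9.90 with 1 list alone. Masked sequence against first introns was 5.04 to 5.79 with 1 list alone. The cause of these changes was not tested. No paired analysis was possible because both lists belong to 1 group.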
